A study of Mus musculus with 3 samples.

Results

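The 3 genes described here, Pou5f1, Sox2 and Nanog, encode the transcription factors Oct4, Sox2 and Nanog, which together hold mouse embryonic stem (ES) cells in the pluripotent state. Their loci were examined in a list of chromatin-bound sites of Tex10, made by chromatin immunoprecipitation followed by sequencing (ChIP-seq), a method that recovers DNA bound by or close to a protein. The members are the rows of the list that overlap 1 of 3 fixed windows of the mm9 genome by at least 1 base. The windows were chr17:35590000-35700000 for Pou5f1 (110 kb), chr3:34500000-34700000 for Sox2 together with its distal control region (200 kb) and chr6:122600000-122720000 for Nanog (120 kb). They held 19 of the 5189 peaks in the list (0.366%), with 5 at Pou5f1, 7 at Sox2 and 7 at Nanog, and none of the 19 crossed a window's edge.

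The list came from J1 cells, an ES line of 129SV background, grown on gelatin in serum with leukaemia inhibitory factor, without treatment. A transgene for 3xFlag-Tex10, delivered ectopically on a piggybac transposon, was carried by the cells of all 3 libraries: a precipitation with an antibody to the Flag tag, a control precipitation with normal mouse IgG, and input DNA. Each was a single library, so no value below has a replicate, and the promoter of the transgene and its level against the cell's own Tex10 are not given in the sources used here. A processed file was used for the Flag library alone, and IgG and input were not analysed here. The list gives each peak a position and a score whose scale no header names, and gives no read counts, so the depth behind a peak is unknown.

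Oct4 and Sox2 bind DNA side by side, on an octamer and a SOX element, and with Nanog they occupy the control regions of their own and each other's genes. In ES cells such genes are driven by clusters of enhancers, called super-enhancers when they are long and dense. Sox2 depends in these cells on a control region far downstream of its single exon, and Pou5f1 on a proximal and a distal enhancer upstream of its promoter. Tex10 is a nuclear protein known from complexes of ribosome maturation and, in ES cells, as a partner of Sox2. The series addresses its role at super-enhancers in pluripotency and reprogramming.

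To show letter matches to known types of element, the 250 bases before the first RefSeq start of each gene are printed below. They run 5′ to 3′ on the plus strand, which is the coding strand of all 3. They come from RefSeq on build GRCm38.p6, not mm9, and their coordinates must not be set beside the peak positions. Capitals mark matches, on either strand, to the octamer ATGCAAAT or its core ATGCAAA, the SOX core CATTGT, the GC box GGGCGG and the nuclear receptor half-site AGGTCA. The full octamer contains its core, so a full match would count under both.
Pou5f1, GRCm38.p6 chr17:35505782-35506031: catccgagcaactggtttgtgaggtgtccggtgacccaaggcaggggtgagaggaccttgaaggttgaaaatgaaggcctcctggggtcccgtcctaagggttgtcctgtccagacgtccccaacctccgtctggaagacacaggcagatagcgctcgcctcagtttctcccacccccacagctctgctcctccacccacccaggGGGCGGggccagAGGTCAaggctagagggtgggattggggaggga
Sox2, GRCm38.p6 chr3:34649745-34649994: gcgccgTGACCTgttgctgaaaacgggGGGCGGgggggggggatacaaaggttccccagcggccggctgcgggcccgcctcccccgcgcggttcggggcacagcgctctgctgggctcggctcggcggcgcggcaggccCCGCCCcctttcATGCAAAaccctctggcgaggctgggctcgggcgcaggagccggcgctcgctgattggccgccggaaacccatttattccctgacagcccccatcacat
Nanog, GRCm38.p6 chr6:122707239-122707488: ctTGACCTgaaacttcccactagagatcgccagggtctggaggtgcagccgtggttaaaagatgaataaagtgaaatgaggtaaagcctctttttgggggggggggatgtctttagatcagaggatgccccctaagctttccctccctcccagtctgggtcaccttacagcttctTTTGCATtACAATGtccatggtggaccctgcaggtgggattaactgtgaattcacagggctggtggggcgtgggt

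Sox2 and Nanog each held 1 octamer core, a match found in 4.12% of the 32851 promoters of the table, and Pou5f1 held 0. In Nanog the core ran from 75 to 69 bases before the start on the minus strand, and the SOX core followed it from 67 to 62 bases before the start. Nanog is known, as background, to be controlled by Oct4 and Sox2 through such a composite element. The SOX core was present in 10.7% of all promoters and in neither Pou5f1 nor Sox2. In Sox2 the octamer core lay from 99 to 93 bases before the start. Pou5f1 had a GC box (45 to 40 bases before the start) close to a half-site (33 to 28), Sox2 had 2 GC boxes, and Nanog had 0, against 32.7% of all promoters with at least 1. Each of the 3 had 1 half-site, which 14.0% of all promoters held, and the full octamer, held by 1.60%, was in none of them. These are matches of letters only. Whether a peak covered any of these promoters, exons or introns was not determined, because no gene annotation or sequence of mm9 was used.

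All 3 windows were crowded with peaks. The Pou5f1 window had 4.55 peaks per 100 kb, the Sox2 window 3.50 and the Nanog window 5.83. The 5120 autosomal peaks averaged 0.207 per 100 kb, and the chromosomes that carry the 3 genes averaged 0.235 (chromosome 17), 0.164 (chromosome 3) and 0.161 (chromosome 6). The windows were proposed with earlier results of this list in view, so no test was made of these densities.

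To read the counts against a background, the 19 autosomes were divided into consecutive stretches of each window's length. Their borders were fixed from base 1 and could split a group of peaks, whereas each window was placed around its locus. The shares may therefore be lower than for stretches placed around groups of peaks, which were not counted. Of 22465 stretches of 110 kb, 53 (0.236%) held at least the 5 peaks of the Pou5f1 window. Of 12350 stretches of 200 kb, 25 (0.202%) held at least the 7 of the Sox2 window. Of 20593 stretches of 120 kb, 13 (0.0631%) held at least the 7 of the Nanog window, and 7 held more. By this share the Nanog count was the rarest of the 3. The order of Pou5f1 and Sox2 depended on the setting: with stretches of the own chromosome alone the shares were 0.462% and 0.125%, with scores of at least 5 they were 0.401% and 0.130%, and with peaks under 500 bp apart joined they were 0.169% and 0.623%.

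**Figure D1:**
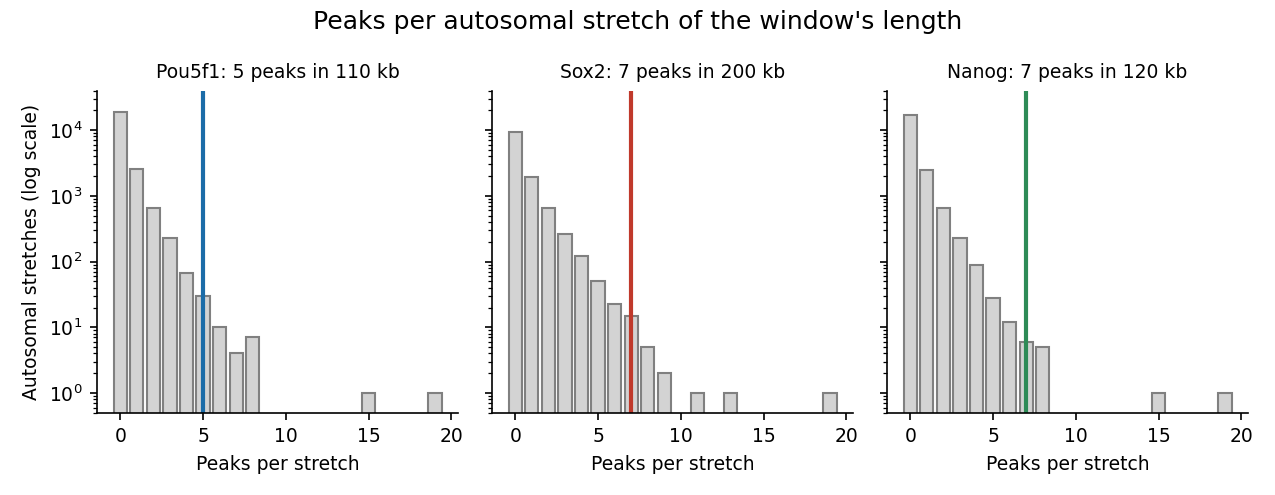
Number of autosomal mm9 stretches (vertical, log scale) by how many peaks they hold (horizontal), for stretches as long as each of the 3 windows. The coloured line marks the count of the window, which 0.236%, 0.202% and 0.0631% of the stretches reached for Pou5f1, Sox2 and Nanog.

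Most stretches were empty, from 75.1% at 200 kb to 84.2% at 110 kb. Among stretches with at least 1 peak, the share that reached the window's count was 1.50% for Pou5f1, 0.812% for Sox2 and 0.374% for Nanog. The stretches were not matched to the windows for genes or for sequence that can be mapped, and the part of either in these shares was not tested. On the genes' own chromosomes, 4 of 866 stretches reached the Pou5f1 count, 1 of 797 the Sox2 count and 0 of 1245 the Nanog count. The Nanog window lies on chromosome 6 and itself holds 7 peaks, so the fixed borders split them, and the 0 is no measure of rarity. The borders also split the peaks of the Pou5f1 and Sox2 windows, so neither window is among the stretches that reached its own count. Their counts on single chromosomes are lowered in the same way.

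The spacing of peaks around the windows differed between the loci. The median gap between neighbouring autosomal peaks was 140.1 kb. Measured in this way, from peak to peak, the gap before the first peak was 638.3 kb at Sox2, 215.3 kb at Pou5f1 and 50.8 kb at Nanog. The distances that follow run from a window's edge instead, so they are shorter and are not to be set against the median. The nearest peak outside the Sox2 window lay 593.1 kb before it (score 4.86), and the next one after it lay 922.5 kb away (score 6.35). Around Pou5f1 these distances were 182.7 kb and 134.8 kb, and the peak before the window scored 33.42, above all 5 inside it. The last Pou5f1 peak lay 56.8 kb inside the window's end, so the gap from peak to peak after it exceeded the median. Before the Nanog window a peak with a score of 2.99 lay 41.2 kb away, and after it none followed for 1716 kb. The last Nanog peak lay only 3.12 kb inside the window's end and the first 9.61 kb inside its start, whereas at Pou5f1 and Sox2 the outermost peaks lay at least 32.7 kb inside.

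**Figure D2:**
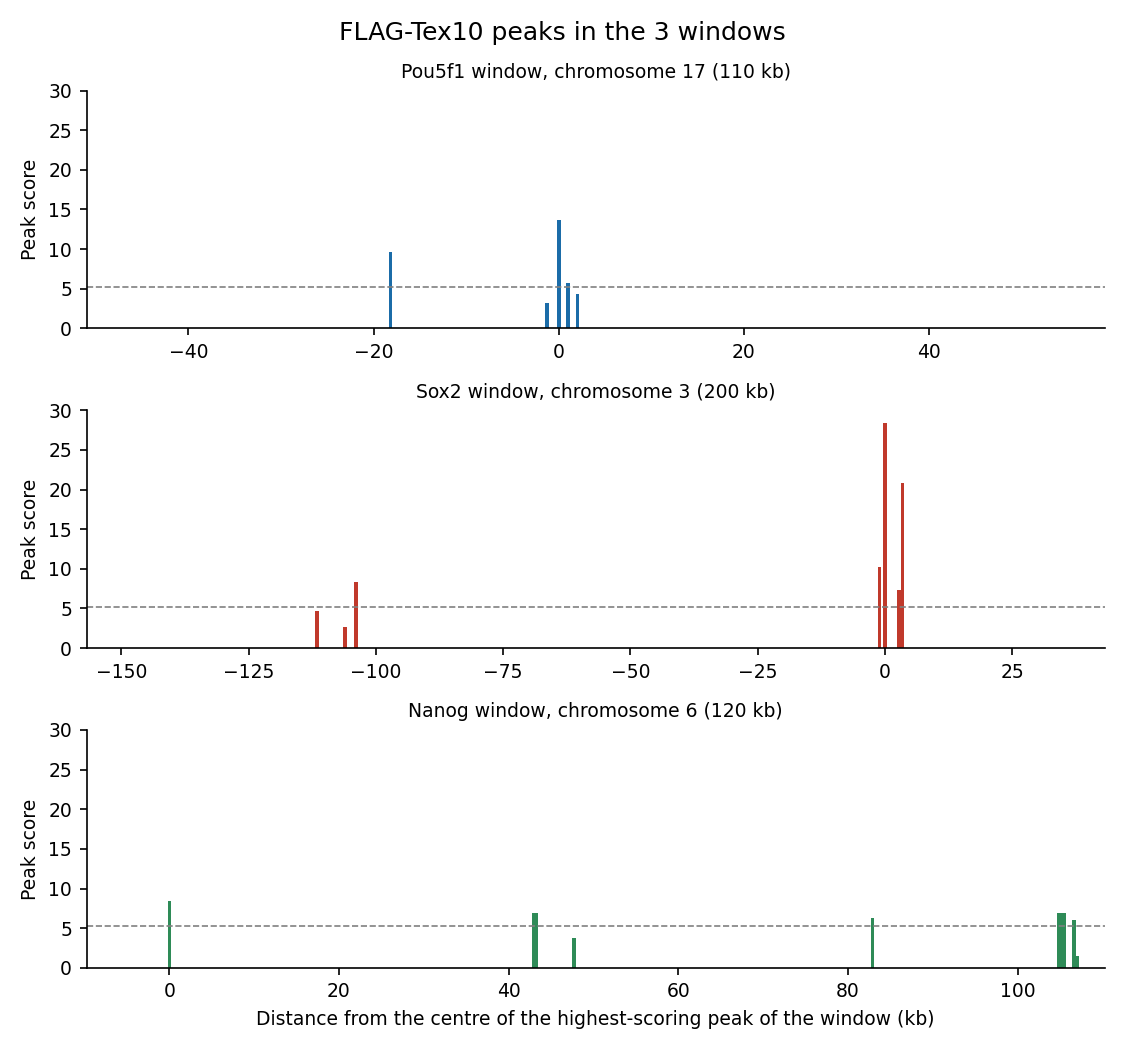
Score of each peak (vertical) against its distance in kb from the highest-scoring peak of the same window (horizontal), for the 3 windows drawn edge to edge. The dashed line is the median score of the list, 5.22. Narrow peaks are drawn wider than scale so that they can be seen. The Sox2 peaks form 2 groups 102.4 kb apart, the Pou5f1 peaks 1 tight group with a single peak to its left, and the Nanog peaks 4 scattered places.

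At Pou5f1, 4 of the 5 peaks formed a tight row of 3.55 kb (chr17:35639612-35643163), and 1 stood alone 16.6 kb to the left. Pou5f1 lies between H2-Q10, a class I histocompatibility gene, and Tcf19 in the order of the RefSeq table, and is transcribed toward higher coordinates. The lone peak, chr17:35622669-35623023, was 355 bp wide and scored 9.69. In the row, the first peak was the weakest of the window (chr17:35639612-35639871, 260 bp, score 3.18). The second was the strongest (chr17:35640790-35641197, 408 bp, score 13.65), reached by 8.02% of the list. The next scored 5.73 over 423 bp (chr17:35641770-35642192), and the last scored 4.39 over 311 bp (chr17:35642853-35643163).

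Scores within the row were highest at its second member and lower at each later one toward higher coordinates, with 0.57 to 0.92 kb between neighbours. The row holds 4 peaks, and 50 of the 156 autosomal stretches of at least 3 peaks (32.1%) held at least as many. Stretches here are runs of neighbouring peaks joined over the short gaps commonly used to define super-enhancers. By its highest score the Pou5f1 row ranked 37 of 156. Peaks covered 39.5% of its length, a share that 17.9% of such stretches reached.

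At Sox2 the peaks fell into a left group of 3 and a right group of 4, and the right group held the strongest peaks of all 19. Sox2 is followed by Atp11b, a phospholipid flippase gene, and preceded by Dnajc19, a mitochondrial co-chaperone gene, in the order of the RefSeq table. It too is transcribed toward higher coordinates, so the right group lies on the downstream side of the left one. No peak was listed in the 102.4 kb between the groups.

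The left group spanned 8.02 kb (chr3:34545139-34553154). Its first peak was 224 bp wide and scored 4.71 (chr3:34545139-34545362). That width is the narrowest in the list, shared by 606 peaks. The second scored 2.69 over 295 bp (chr3:34550569-34550863), and the last 8.28 over 492 bp (chr3:34552663-34553154). Of the 3, only the last scored above the median of the list.

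The right group spanned 5.06 kb (chr3:34655508-34660569) and had scores from 7.29 to 28.44. Its first peak scored 10.26 over 512 bp (chr3:34655508-34656019). The second, chr3:34656461-34657191, was 731 bp wide and scored 28.44, the highest of the 19. It ranked 138 among all peaks and 4 among the 262 of chromosome 3. A weaker peak followed 2.15 kb further on (chr3:34659343-34659753, 411 bp, score 7.29). The last scored 20.86 over 531 bp (chr3:34660039-34660569), which 3.82% of the list reached.

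High and low scores alternated along the right group, with 2 close pairs, 441 and 285 bp apart, each made of a weaker peak followed by a stronger one. The median score was 15.56 in the right group and 4.71 in the left. The ranges overlapped only through the 8.28 of the last peak of the left group, which lay above the 7.29 of the right group. Among the 156 autosomal stretches of at least 3 peaks the right group ranked 9 by its highest score (5.77% reached it), and the left group ranked 80. Peaks covered 43.2% of the right group and 12.6% of the left. Of the 156, 18 (11.5%) had another such stretch within a span of 200 kb, the Sox2 groups included.

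**Figure D3:**
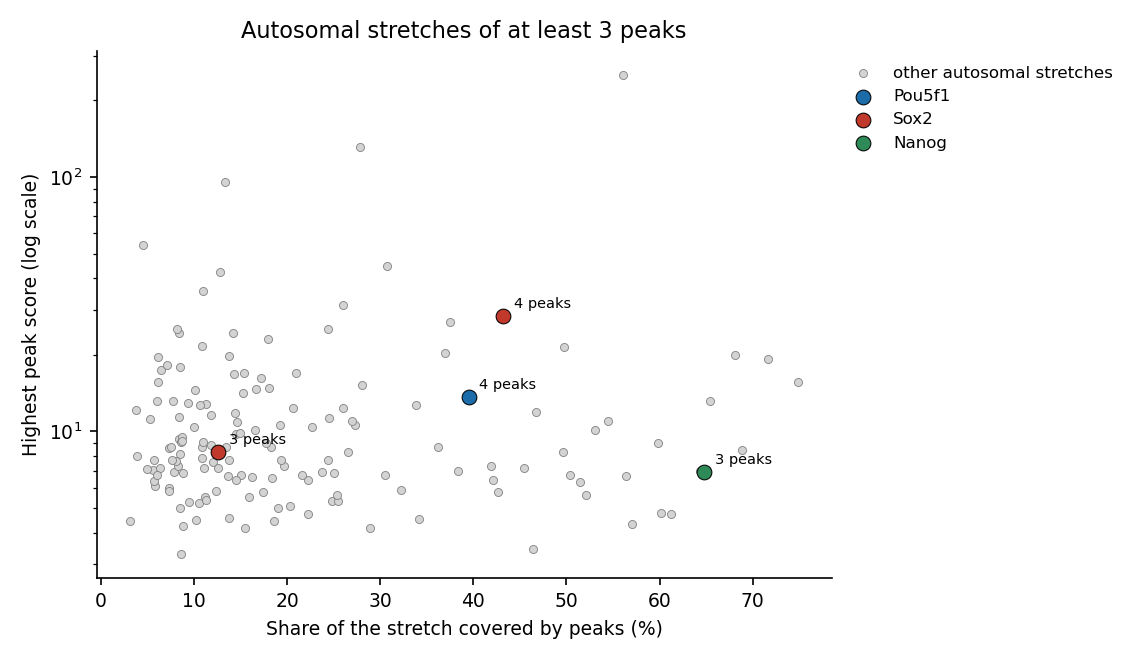
Highest peak score (vertical, log scale) against the percentage of length covered by peaks (horizontal) for the 156 autosomal stretches of at least 3 peaks. Of the 4 coloured stretches, the right Sox2 group (28.44) lies highest and the Nanog group (64.8% covered) farthest to the right.

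At Nanog the 7 peaks were spread over 107.3 kb in 4 places, and none scored 10 or more. Nanog lies between Dppa3, a gene of the oocyte, germ line and ES cells, and Slc2a3, which encodes a glucose transporter, in the order of the RefSeq table, and is transcribed toward higher coordinates. Which of these genes a given peak lay closest to was not determined. The first peak, chr6:122609606-122609870, was the strongest of the window, with a score of 8.48 over 265 bp. Its rank on chromosome 6 was 49 of 240.

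A pair followed 42.7 kb further on. Its first peak scored 6.91 over 699 bp (chr6:122652543-122653241) and its second 3.82 over 455 bp (chr6:122657196-122657650), with 3.95 kb between them. A lone peak came 34.9 kb after the pair (chr6:122692511-122692762, 252 bp, score 6.32). All 3 of these peaks scored below the first peak of the window, and 2 of them above the median of the list.

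The last place was a group of 3 over 2.47 kb (chr6:122714413-122716879). It opened with the widest of the 19 peaks, 1030 bp, which scored 6.91 (chr6:122714413-122715442). A peak of 290 bp with a score of 6.09 followed (chr6:122716209-122716498), and 103 bp beyond it the weakest of the 19, with a score of 1.53 over 278 bp (chr6:122716602-122716879). The list's lowest score is 1.31, and 99.8% of peaks scored at least as high as this one. By its highest score the group ranked 105 of 156. By the share of its length covered by peaks, 64.8%, it was among the top 3.85%. That share belongs to a stretch of only 2.47 kb, where the peak of 1030 bp made up most of the 1598 bp covered.

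At Nanog the widest peak was not the strongest, whereas at Sox2 it was. The widest Nanog peak ranked 21 in the list by width and 1558 by score. Of the 21 peaks at least as wide, itself included, 19 scored higher and 1 lower, with a median of 16.02. The strongest Sox2 peak ranked 141 by width and 138 by score. Both Nanog peaks that scored 6.91 had exactly the same deposited value, which 11 peaks of the list shared. Across the 19 the Spearman correlation of width and score was 0.52, against 0.37 over the list. It is a description, since peaks of 1 locus share their surroundings and all share 1 library.

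**Figure D4:**
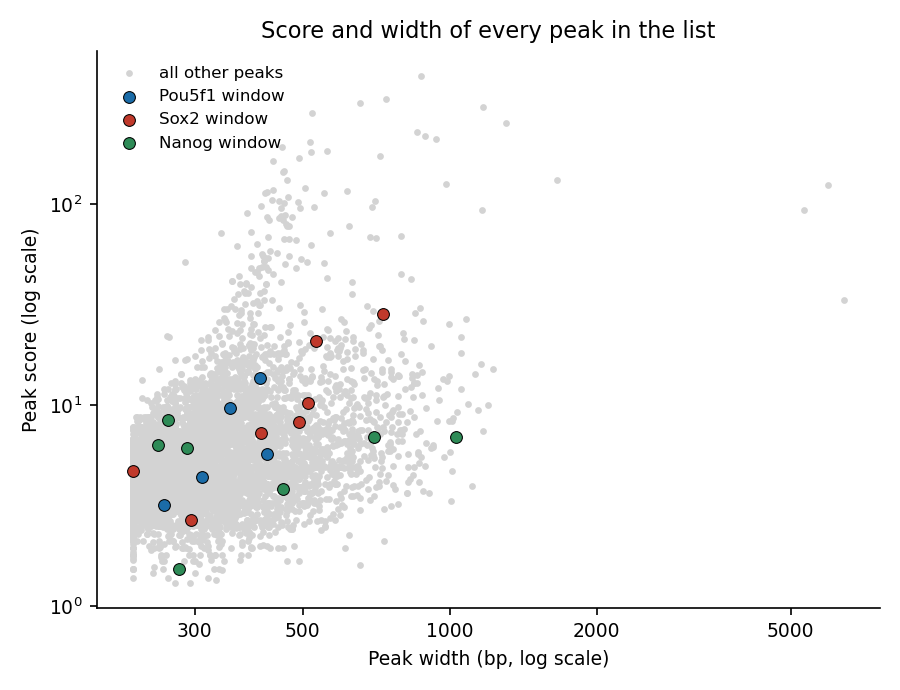
Peak score against peak width in bp (both log scales) for the list (grey) and the 19 members (coloured by window). The strongest Sox2 peak (731 bp, 28.44) is both the strongest and the widest of its window, and the widest Nanog peak (1030 bp, 6.91) scores less than 19 of the 21 peaks at least as wide, itself included.

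Scores overlapped between the 3 loci. The median score was 5.73 at Pou5f1, 8.28 at Sox2 and 6.32 at Nanog, and the ranges overlapped: 3.18 to 13.65, 2.69 to 28.44 and 1.53 to 8.48. Over all 19 the median was 6.91, against 5.22 in the list (quartiles 3.75 and 7.73). Above the list's median were 13 of the 19 (68.4%): 3 of 5 at Pou5f1, 5 of 7 at Sox2 and 5 of 7 at Nanog. By definition, ties aside, as many peaks of the list lie above that median as below it. Nothing is read about the members from this count.

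A score of at least 10 was reached by 4 of the 19 (21.1%), against 14.5% of the list. These were 1 peak at Pou5f1, 3 at Sox2, all in the right group, and 0 at Nanog. None was among the 100 strongest peaks, and the list's maximum was 432.1. Read against that background, the share of high scores is no result about the members.

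Peaks of the 3 loci lay close together. In stretches of at least 3 peaks lay 14 of the 19 (73.7%), against 11.0% of autosomal peaks. A further 2 were a pair and 3 were single, whereas 70.7% of autosomal peaks were single. Of the 16 gaps between neighbouring members of the same window, 7 were under 1 kb and the median was 1.98 kb. Over 5101 autosomal gaps the median was 140.1 kb, and 6.37% were under 1 kb. Gaps leading into a window from outside were left out of the 16 but not of the 5101, so the medians are unlike measures. Crowding and grouping are not independent of each other, since 7 peaks in 120 kb leave little room for long gaps. The count of 14 also rests on weak peaks. The Nanog group reaches 3 only with the peak that scored 1.53, and the left Sox2 group only with those of 4.71 and 2.69. The Pou5f1 row includes scores of 3.18 and 4.39. This count was not repeated with a minimum score.

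Widths overlapped between the loci. Over all 19 the median was 408 bp, against 314 bp in the list. Wider than the list's median were 11 of the 19, a count from which nothing is read about the members. By window the medians were 355 bp at Pou5f1, 492 bp at Sox2 and 290 bp at Nanog. The ranges overlapped: 260 to 423 bp, 224 to 731 bp and 252 to 1030 bp. The peaks covered 1757 bp of the Pou5f1 window (1.60%), 3196 bp of the Sox2 window (1.60%) and 3269 bp of the Nanog window (2.72%). The Nanog window, with the lowest maximum score, therefore had the most of its length under peaks.

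Exact repeats of a score occur throughout the list, and the members shared this property. Of the 19, 4 had a score found nowhere else in the list, against 18.3% of all peaks. The strongest Sox2 peak was among these 4. None had 1 of the scores that recur in at least 90 peaks, which 11.0% of the list had. With only 19 members, nothing is read about them from these shares. The most often repeated score among the members, 4.71 of the narrowest Sox2 peak, occurred in 60 peaks.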

How the data were processed

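Per the labels, 1 Flag precipitation, 1 IgG precipitation and 1 input library from J1 ES cells were sequenced as single-end reads. The file used is a peak list with a score per peak as the authors deposited it, without header; the sources used here do not state what called the peaks, at which threshold and against which control. In their processing notes the submitters name build mm9 and the tools Bowtie 1.0.0, bedtools 2.18.1, FastQC 0.10.1 and SAMtools 0.1.19, without their roles. The list comes from 1 library, its depth is unknown, and no test was possible.

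Starts were converted to 1-based. A peak belonged to a window if at least 1 base overlapped. Peaks with gaps under 12.5 kb formed stretches. The 19 autosomes were divided into full stretches of each window's length from base 1, with mm9 lengths from GenomeInfoDb 1.38.1 (R 4.3.3). The analysis used Python 3.11.15, numpy 2.4.6, pandas 2.3.3, scipy 1.17.1 and matplotlib 3.10.9, and the counting was tested on simulated data. All peaks of the windows are named; genes are named by neighbour order, from a table of GRCm38.p6, as the 2 nearest protein-coding genes on each side, of which the nearest are given. All 3 genes matched the RefSeq promoter table, and the row at the gene's first start was used. The windows, lists and alternatives were chosen with earlier results of these data known.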

Additional observations from a re-analysis of the deposited data

How the results depend on the processing

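Of 32 alternatives to 7 results, 20 kept the value within the limits set for it and 12 did not. The limits were 1.5 times for a count and the exact 95% binomial interval for a share. That interval treats neighbouring stretches as independent, which they are not, so it served only to sort the alternatives. Requiring a score of at least 5 left 3 peaks at Pou5f1, and requiring at least 10 left 1 at Pou5f1, 3 at Sox2 and 0 at Nanog, as fewer peaks enter. Narrowing each window by 20 kb on each side left 3 of the 7 Nanog peaks and every peak of the other two windows, and widening by 50 kb added 1 peak, at Nanog. The share of stretches that reached the Pou5f1 count, 0.236%, became 0.462% on chromosome 17 alone, 0.401% with scores of at least 5 and 0.169% with peaks under 500 bp apart joined. For Sox2, 0.202% became 0.125% on chromosome 3 alone, 0.130% with scores of at least 5 and 0.623% with close peaks joined, which leaves 5 of its 7 peaks. For Nanog, 0.0631% became 0% on chromosome 6 alone and 0.107% with close peaks joined. The stretch borders split the peaks of each window, so the shares on single chromosomes leave out the window itself and are no measure of rarity. With the shares on single chromosomes left aside, the Nanog share was the lowest of the 3 in each setting for which shares were computed. Joining close peaks turned the order of Pou5f1 and Sox2. Shares were not computed for scores of at least 10 or for narrowed windows. In both of those settings Nanog kept the fewest peaks of the 3 loci. The cause of these shifts was not tested beyond the change in the peaks or stretches counted. In stretches of at least 3 peaks lay 11 of the 19 members with gaps under 5 kb (6.48% of autosomal peaks) and 16 with gaps under 25 kb (17.1%). No minimum score was tried for this count. No paired analysis was possible because only the Flag library has values here. Peaks under the list's threshold are not in it, and with no depth given the distance of an empty span from that threshold is unknown.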
